A study of Saccharomyces cerevisiae with 9 samples.

Results

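The cytosolic ribosomal protein genes of Saccharomyces cerevisiae were followed across 3 groups of 3 microarrays. Members were taken by symbol from the open reading frame that each probe names: all RPL and RPS genes with a number and, where present, an A or B suffix, together with the stalk genes RPP0, RPP1A, RPP1B, RPP2A and RPP2B. A gene table held 137 such genes, and the array held 6199 genes in all. Of these, 76 encode large-subunit proteins, 56 small-subunit proteins and 5 the stalk. RPL20A was named by no probe and is not analysed here. The other 136 each had 1 probe, and every one of these probes lay well above background on all 9 arrays, so no member entered or left through a filter on dim signals.

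The cells were BY4743, a diploid laboratory strain, in all 3 groups. HenGC-treated and SoyGC-treated cells had received, at 40 ug/ml for 17 h, a GC preparation of hen of the woods, a mushroom, or of soybean. The vehicle control had received neither, and no dose or time is given for it in the labels. GC is not spelled out there. In work on sphingolipids, the lipids that the series' title names, the letters usually stand for glucosylceramide. Nothing in the labels tells whether the 3 samples of a group came from separate cultures, and p-values here cover no more than their spread, which may be technical. In bulk RNA of this kind, fewer cells with a transcript and less of it per cell cannot be told apart.

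A yeast ribosome is built from a large and a small subunit, each made of ribosomal RNA and many small basic proteins. After an ancient genome duplication most of these proteins kept a pair of genes, called A and B, whose products are identical or nearly so. Transcription of the whole set is coordinated: Rap1 and Fhl1 sit at most of the promoters, Ifh1 activates and Crf1 represses through Fhl1, and Sfp1 and the kinase Sch9 link the set to nutrient signals. Ribosomal protein transcripts are among the most abundant in growing yeast, and their level is known to follow growth rate.

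Of 43792 spots that were not controls, 92.4% to 95.8% lay well above background on each array, and the 75th percentile of the signal was 5273 to 7803. No spot of a ribosomal protein gene was saturated (0 spots), and the 7 spots of a member's probe varied by a median of 3.23% to 4.13% on an array. Levels below are log2 processed signals relative to each array's own 75th percentile. As a check of the strain, the auxotrophic markers HIS3, LEU2 and URA3, at least partly deleted in BY4743, reached a level well above background on 0 of 9 arrays. The list of haploid-specific genes was not silent: STE2, STE3, STE4 and GPA1 among them were well above background on all 9 arrays of this labelled diploid. Of the listed genes only HO (4 arrays), FAR1 (6) and MFA2 (7) fell short of that. The 14 tested genes of the list were dim on average, with mean levels by array of -5.51 to -5.19. MFA2 stood at -7.01, -7.67 and -7.18 in SoyGC and at -6.62, -6.76 and -6.43 in vehicle. MF(ALPHA)1 (-0.70 ± 0.12, SE; limma adjusted p = 0.0401) and MF(ALPHA)2 (-1.15 ± 0.12, adjusted p = 0.0072) were lower in HenGC than in vehicle, and MFA2 (-0.68 ± 0.17, adjusted p = 0.0427) was lower in SoyGC than in vehicle. Without vehicle 3 the calls of MF(ALPHA)1 in HenGC (adjusted p = 0.0633) and MFA2 in SoyGC (adjusted p = 0.0897) were lost.

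Vehicle replicate 3 stood apart. It correlated with vehicle 1 and 2 at 0.977 and 0.979 across all tested genes, and 515 genes differed over 2-fold from the mean of its group mates. Among ribosomal protein genes its median shift from those mates was only 0.01, but 10 members were more than 0.5 lower there. On the other arrays 0 to 4 members lay that far below their group mates. The largest gaps were at RPL39 (-1.71), RPL41B (-1.22), RPL24B (-0.83) and RPL41A (-0.80). RPL39 and the RPL41 genes encode some of the shortest proteins of the large subunit. The other 6 were RPS20 (-0.64), RPL31A (-0.63), RPS29A (-0.63), RPL34A (-0.57), RPS7B (-0.56) and RPL38 (-0.53), of which RPS20 and RPL34A were singled out after their values were seen. The arrays lay on 3 slides. HenGC 1 and 2 had slide 2, SoyGC 1 and 2 shared slide 1 with vehicle 1 and 2, and all arrays numbered 3 were on slide 3. Slide 3 was scanned on a second day, so vehicle 3 is the only vehicle array of its slide and scan day.

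**Figure D1:**
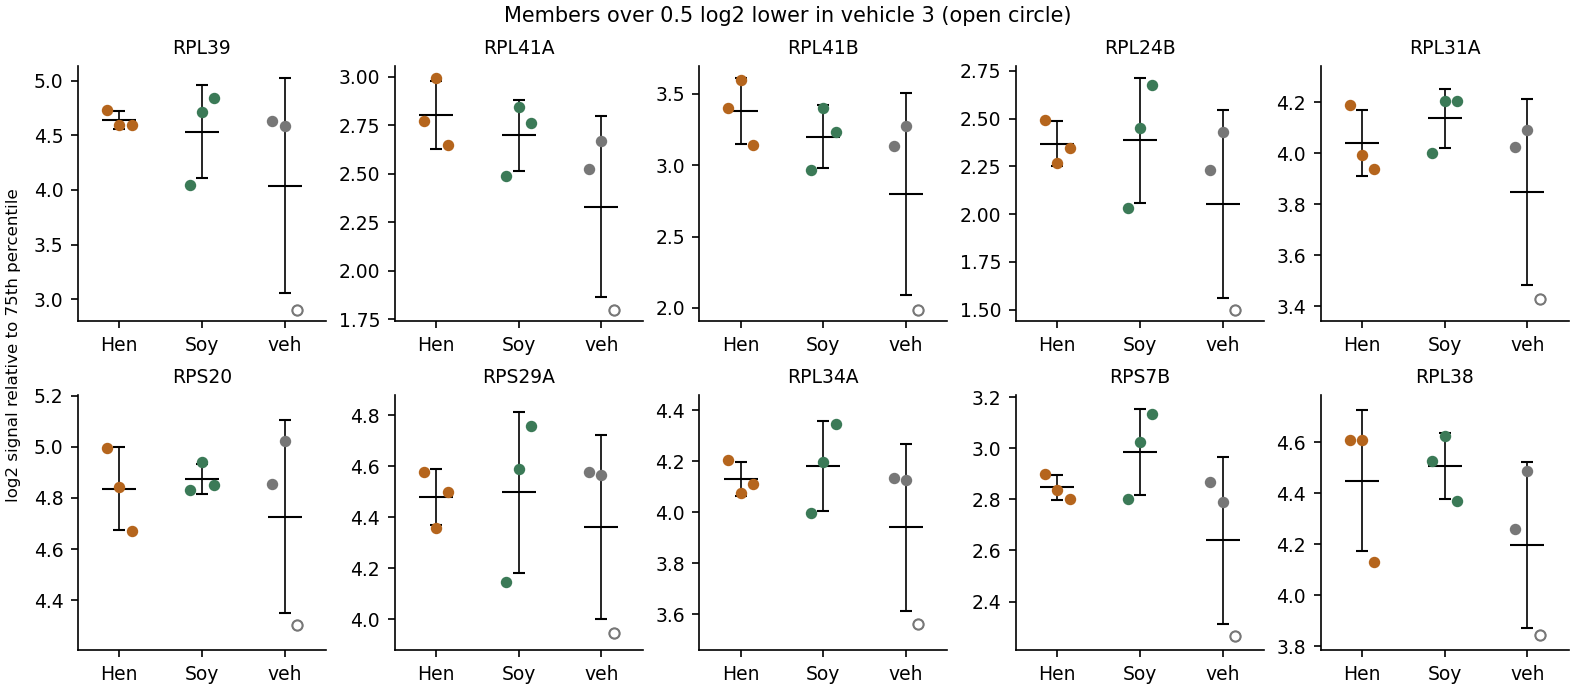
Log2 signal relative to the array's 75th percentile for the 10 ribosomal protein genes that were more than 0.5 lower in vehicle 3 (open circle) than in vehicle 1 and 2; each panel has HenGC, SoyGC and vehicle, points are arrays, and bars are the mean ± SD of 3. At RPL39 vehicle 3 stood at 2.90, against 4.64 and 4.59 for vehicle 1 and 2.

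RPL39, whose protein lines the exit tunnel for nascent chains, shows how this array bears on a result. It stood at 4.74, 4.59 and 4.59 in HenGC 1 to 3, at 4.05, 4.71 and 4.84 in SoyGC 1 to 3, and at 4.64, 4.59 and 2.90 in vehicle 1 to 3. All HenGC arrays lay at or near vehicle 1 and 2, SoyGC 1 lay below them, and vehicle 3 was lowest of all. The fitted differences were 0.60 ± 0.42 (SE) for HenGC minus vehicle and 0.49 ± 0.42 for SoyGC minus vehicle, with limma adjusted p-values of 0.403 and 0.485. Without vehicle 3 they were 0.03 and -0.08.

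RPL41B, of the same set, gave a like picture. It stood at 3.40, 3.60 and 3.14 in HenGC, at 2.97, 3.40 and 3.23 in SoyGC, and at 3.14, 3.27 and 1.99 in vehicle. The groups overlapped except for vehicle 3. The difference was 0.58 ± 0.31 for HenGC minus vehicle and 0.17 without vehicle 3. For SoyGC minus vehicle it was 0.40 ± 0.31, and -0.01 without vehicle 3. RPL41A differed by 0.47 ± 0.22 in HenGC (0.21 without vehicle 3) and by 0.37 ± 0.22 in SoyGC (0.10 without it), and RPL24B by 0.32 ± 0.24 in HenGC (0.04 without it). RPL24B stood at 2.49, 2.27 and 2.35 in HenGC, 2.03, 2.45 and 2.67 in SoyGC, and 2.23, 2.43 and 1.499 in vehicle.

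The first comparison asked how ribosomal protein transcripts of HenGC-treated cells compared with those of vehicle cells. As a set they lay close to the vehicle level: the median difference of the 136 members was -0.01 on the log2 scale, beside 0.00 for all 5814 genes tested, and 62 members were positive and 74 negative, where 50.1% of all genes were positive. None passed limma's test (0 of 136 at a Benjamini-Hochberg adjusted p under 0.05), where 1.19% of all tested genes did, 0.912% higher and 0.275% lower. At an unadjusted p under 0.05, 0 members were higher and 1 lower, against 8.51% and 12.8% of all genes. Differences were small, with 124 members within 0.2 of 0, and 118 members had a 95% confidence interval that lay within 0.5 of 0 on both sides.

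By array, the median member stood at 0.10, 0.01 and -0.12 relative to the vehicle mean in HenGC 1 to 3, and at -0.03, 0.03 and 0.01 in vehicle 1 to 3. The HenGC arrays thus lay on both sides of the vehicle arrays. Within scan days the median difference was 0.04 on day 1 and -0.15 on day 2, where each group had 1 array. HenGC 1 and 2 had a slide to themselves, and slide and group cannot be told apart for these arrays on day 1.

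**Figure D2:**
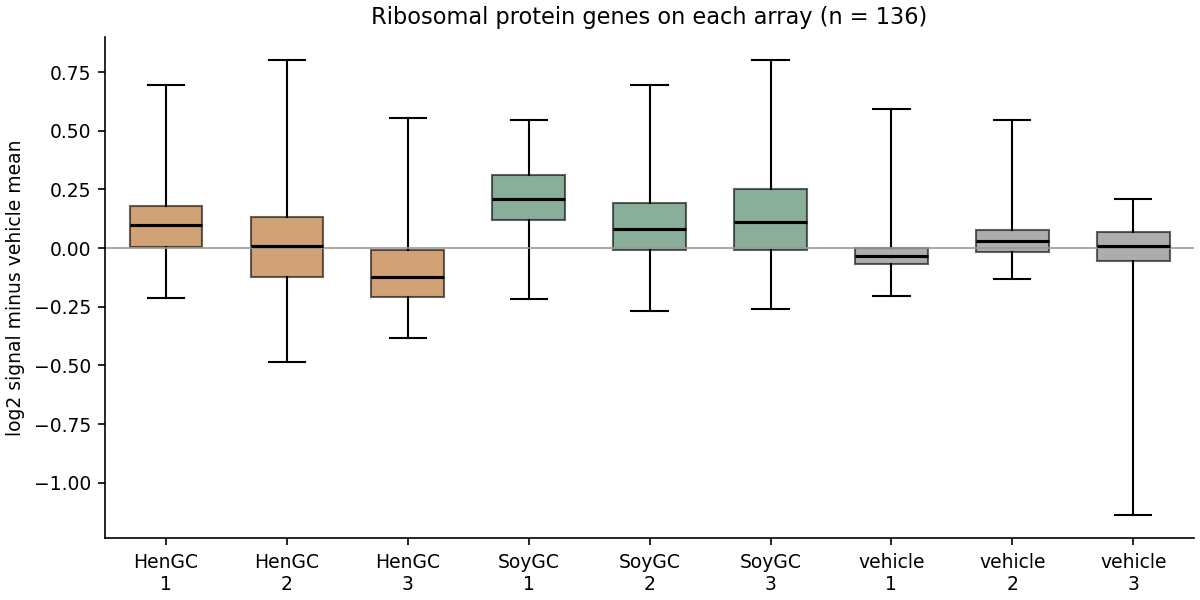
Log2 signal of the 136 ribosomal protein genes on each of the 9 arrays minus each gene's mean over the 3 vehicle arrays; boxes span the quartiles, the bold line is the median and whiskers reach the lowest and highest gene. HenGC medians are 0.10, 0.01 and -0.12, SoyGC medians are 0.21, 0.08 and 0.11, and the low whisker of vehicle 3 ends at -1.14.

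The lowest difference was that of RPP1B, one of the acidic proteins that form the lateral stalk where translation factors dock. It stood at 3.96, 3.80 and 3.84 in HenGC and at 4.10, 4.19 and 4.23 in vehicle. Every HenGC array lay below every vehicle array. The difference was -0.31 ± 0.10 (SE, n = 3 per group), or 0.809-fold, with a limma adjusted p of 0.151. In SoyGC, RPP1B stood at 4.15, 3.90 and 3.94, which overlapped the vehicle range, and its difference from vehicle was -0.18 ± 0.10 (adjusted p = 0.292).

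The other stalk genes showed smaller differences. RPP1A differed by -0.15 ± 0.11 in HenGC and by -0.04 ± 0.11 in SoyGC, RPP2A by -0.15 ± 0.11 and -0.02 ± 0.11, RPP2B by 0.03 ± 0.15 and 0.04 ± 0.15, and RPP0, the protein that anchors the stalk to the large subunit, by -0.09 ± 0.12 and -0.12 ± 0.12. The 5 stalk genes had a median of -0.15 in HenGC and -0.04 in SoyGC, with 0 called in either. Median shifts of the stalk by array were 0.02, -0.20 and -0.27 in HenGC, 0.07, -0.13 and -0.15 in SoyGC, and -0.08, 0.05 and 0.06 in vehicle.

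After RPP1B the most negative members in HenGC were RPL23A (-0.22 ± 0.16), RPS22B (-0.21 ± 0.13), RPS14B (-0.21 ± 0.12) and RPS29B (-0.19 ± 0.08). Without vehicle 3 their differences were -0.12, -0.11, -0.15 and -0.16. RPL23A and RPS22B stood 0.31 and 0.32 higher in vehicle 3 than in its group mates. Rps14 lies on the platform of the small subunit, and it represses the splicing of its own B gene. In 6 members (4.41%) every HenGC array lay below every vehicle array, against 17.7% of all tested genes, and in 0 members did every HenGC array lie above, against 12.2%. The most positive members were RPL39, RPL41B, RPL41A, RPL24B and RPL38 (0.25 ± 0.19). All 5 are among the 10 genes that were low in vehicle 3, and 0 of 136 members were called without that array, when the median was 0.00 and 68 members were positive. Of all 5814 genes 2640 were then positive, 44 were called higher and 6 lower, and the median was -0.02.

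SoyGC-treated cells were set against the same vehicle arrays, so both comparisons share these controls. Ribosomal protein transcripts lay slightly higher in SoyGC: 119 of 136 members (87.5%) had a positive difference, where 50.4% of all tested genes did, and the median was 0.14, beside 0.00 for all genes. One gene, RPL35B, rose by limma's test (1 of 136, 0.735%), against 9.27% of all tested genes called, 3.34% higher and 5.93% lower. At an unadjusted p under 0.05, 20 members were higher (14.7%) and 0 lower, against 10.9% and 16.7% of all genes. The groups did not overlap in 43 members that were higher (31.6%) and in 1 that was lower, against 13.7% and 20.5%.

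RPL35B encodes a large-subunit protein beside the exit of the polypeptide tunnel, and its paralogue RPL35A encodes the same protein. RPL35B stood at 4.11, 4.06 and 4.05 in SoyGC and at 3.73, 3.82 and 3.70 in vehicle. All SoyGC arrays lay above all vehicle arrays, with a gap wider than the spread of the 3 SoyGC values. The difference was 0.32 ± 0.08 (SE), or 1.25-fold, with a 95% confidence interval of 0.13 to 0.51 and a limma adjusted p of 0.0467. HenGC arrays, at 3.94, 3.85 and 3.80, lay below the SoyGC arrays, and overlapped the vehicle range.

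RPL35A gave a like picture. It stood at 4.21, 4.12 and 4.16 in SoyGC, at 4.02, 3.94 and 3.91 in HenGC, and at 3.85, 3.92 and 3.82 in vehicle. SoyGC lay above vehicle without overlap, by 0.30 ± 0.08 (adjusted p = 0.0525). The RPL35B difference was 0.31 within scan day 1 and 0.35 within day 2. Its call did not hold: without any single array it was lost, among them vehicle 3 (0.30, adjusted p = 0.0922), and over 23 alternatives its difference stayed between 0.26 and 0.40 while its adjusted p ranged from 0.0191 to 0.614, past the threshold in 8.

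**Figure D3:**
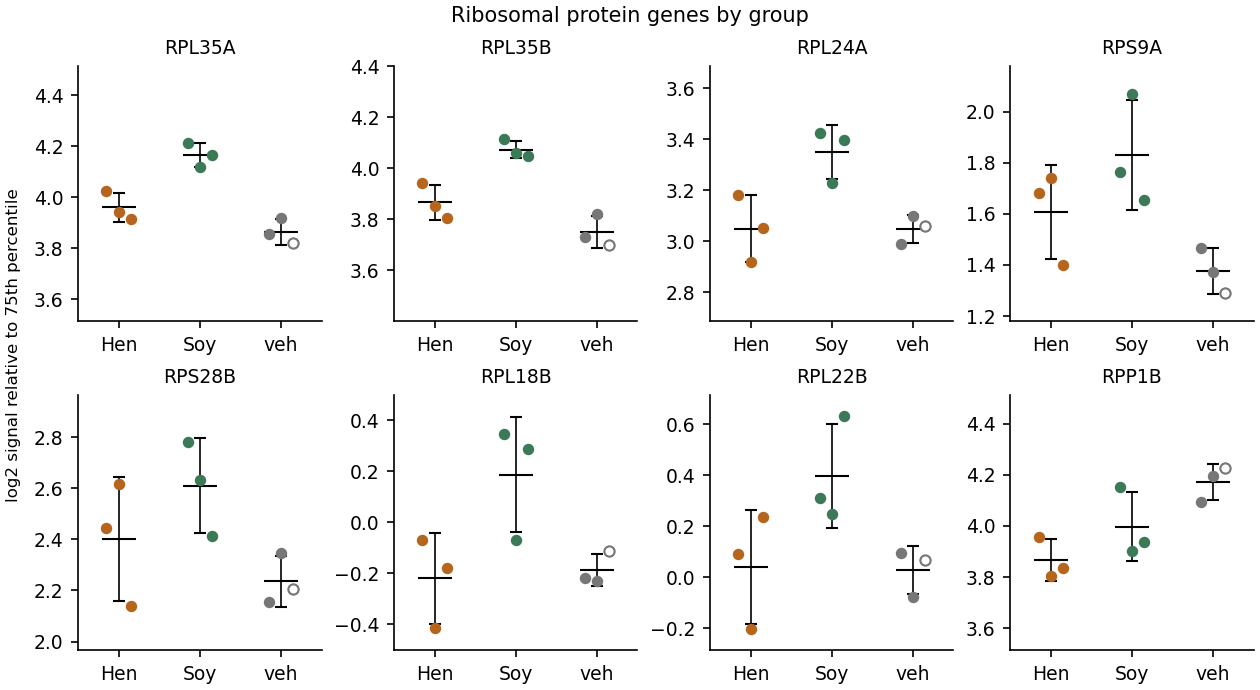
Log2 signal relative to the array's 75th percentile for 8 ribosomal protein genes in HenGC, SoyGC and vehicle; points are arrays, bars are the mean ± SD of 3, and the open circle is vehicle 3. SoyGC lies above vehicle without overlap at RPL35A, RPL35B, RPL24A, RPS9A, RPS28B, RPL18B and RPL22B, and HenGC lies below vehicle without overlap at RPP1B.

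RPS9A, which encodes a small-subunit protein near the mRNA entry that affects decoding accuracy, stood at 1.77, 2.07 and 1.65 in SoyGC and at 1.47, 1.37 and 1.29 in vehicle. SoyGC lay above vehicle without overlap. The difference was 0.45 ± 0.14 with an adjusted p of 0.0692, so it was not called. In HenGC it stood at 1.68, 1.74 and 1.40, and its difference from vehicle was 0.23 ± 0.14.

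RPL7B encodes a large-subunit protein. It stood at -2.50, -2.92 and -2.33 in SoyGC and at -3.05, -3.08 and -2.89 in vehicle. SoyGC 2 fell inside the vehicle range. The difference was 0.43 ± 0.18 (adjusted p = 0.165), and that of its paralogue RPL7A was 0.28 ± 0.11.

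RPS28B belongs to the mRNA exit region of the small subunit, and its protein is known to promote decay of the RPS28B mRNA. It stood at 2.78, 2.63 and 2.41 in SoyGC and at 2.15, 2.35 and 2.20 in vehicle. The groups did not overlap, and the difference was 0.38 ± 0.14 (adjusted p = 0.132). RPL41B and RPL39 completed the 5 most positive members, but their SoyGC differences turned negative without vehicle 3, as given above.

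At the other end were RPP1B, RPS29B (-0.15 ± 0.08), RPL4B (-0.13 ± 0.14), RPP0 and RPL4A (-0.11 ± 0.13). RPS29B stood at 4.23, 4.14 and 4.25 in SoyGC and at 4.31, 4.34 and 4.40 in vehicle, the one member with all SoyGC arrays below all vehicle arrays. Of core proteins of the peptidyl transferase region, RPL3 differed by 0.04 ± 0.14 and RPL10, which helps shape the tRNA sites, by 0.17 ± 0.18. RPL25, a docking site for the signal recognition particle, differed by 0.12 ± 0.10. Large-subunit genes as a group had a median of 0.15 and small-subunit genes of 0.14 in SoyGC, and -0.02 and 0.00 in HenGC.

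The ubiquitin fusion genes, which make a ribosomal protein and a ubiquitin from one precursor, were near 0. RPL40A differed by 0.04 ± 0.11, RPL40B by 0.08 ± 0.12 and RPS31 by 0.03 ± 0.12 in SoyGC, and by -0.10 ± 0.11, -0.10 ± 0.12 and 0.01 ± 0.12 in HenGC. RPS26A and RPS26B, whose protein contacts mRNA upstream of the start codon, differed by 0.14 ± 0.14 and 0.25 ± 0.12 in SoyGC and by 0.10 ± 0.14 and 0.14 ± 0.12 in HenGC. None of these 5 was called in either comparison.

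**Figure D4:**
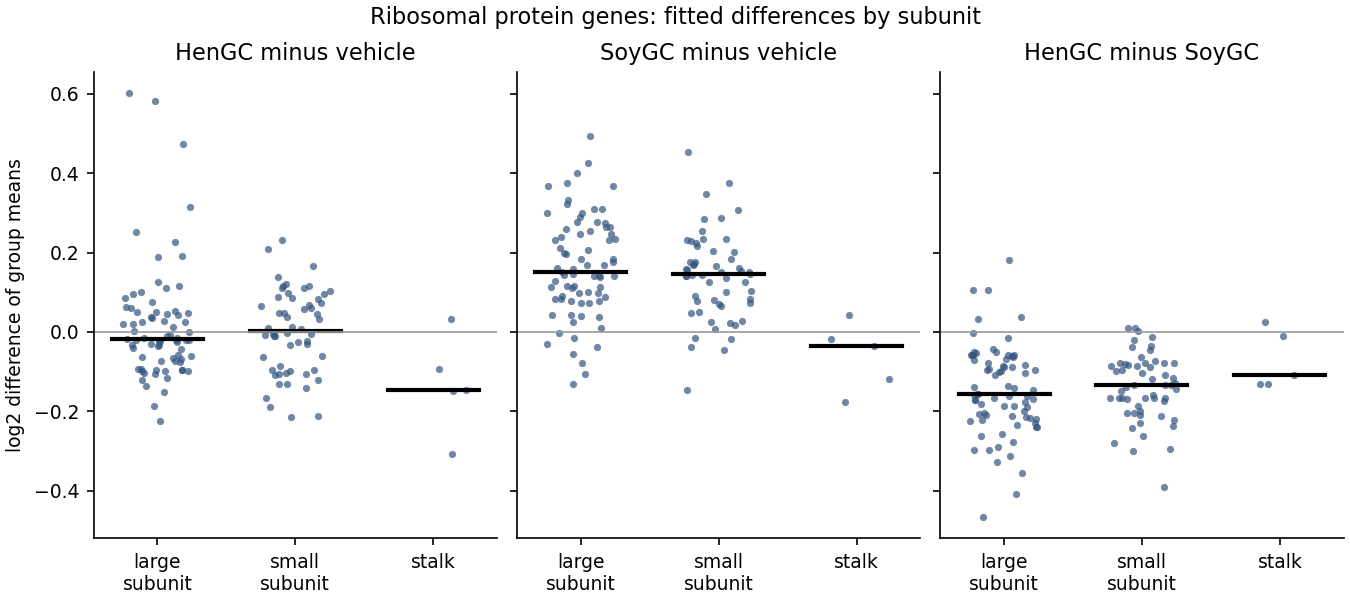
Fitted log2 differences of the 136 ribosomal protein genes, for HenGC minus vehicle, SoyGC minus vehicle and HenGC minus SoyGC, split into 75 large-subunit, 56 small-subunit and 5 stalk genes; points are genes and bars are medians. Large-subunit and small-subunit medians are -0.02 and 0.00, 0.15 and 0.14, and -0.16 and -0.13 in the 3 panels.

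By array, the median member stood at 0.21, 0.08 and 0.11 above the vehicle mean in SoyGC 1 to 3, each higher than any vehicle array. The standard deviation of this value between arrays was 0.07 in SoyGC and 0.03 in vehicle. For the median member level, not set against vehicle, the standard deviation between arrays, pooled over the groups, was 0.09. Within scan days the median difference was 0.13 and 0.09, beside -0.04 and -0.05 for all genes. On both days 83 members were positive and 6 negative, counts that were not made for all genes. Day 2 had 1 array per group, with vehicle 3 as its only control. Without vehicle 3 the median was 0.13, with 125 members positive and 0 called. Of all 5814 genes 2529 were then positive, 82 were called higher and 89 lower, and the median was -0.04.

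The SoyGC differences varied with the brightness of the probe. Ranked by mean signal over the 9 arrays, the dimmest 46 members had a median of 0.23, the middle 45 of 0.15 and the brightest 45 of 0.08. Across the 136 members, which share all arrays and their scaling, Spearman's rho between signal and SoyGC difference was -0.56 and Pearson's r -0.54; across the 5678 other genes rho was -0.02. Other genes in the brightness range of the middle and brightest members, 89 and 50 in number, had medians of -0.18 and -0.12. For HenGC minus vehicle rho across members was 0.06. For HenGC minus SoyGC it was 0.72 (Pearson's r 0.68), against -0.13 across the other genes, and the medians of the dimmest, middle and brightest members were -0.22, -0.14 and -0.08. The part of probe brightness in these differences was not tested.

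HenGC and SoyGC were then compared directly, as preparations from 2 sources at the same dose and time. The comparisons with vehicle do not test this difference, and this one shares its arrays with both. Members lay lower in HenGC: 127 of 136 were negative and 9 positive, where 52.9% of all genes were positive, and the median was -0.14 beside 0.01 for all genes. By array, the median member relative to the vehicle mean was 0.10, 0.01 and -0.12 in HenGC 1 to 3. In SoyGC 1 to 3 it was 0.21, 0.08 and 0.11, so the groups overlapped at HenGC 1. Members share these arrays and are not replicates of a treatment. None was called (0 of 136 by limma), and 0 of all 5814 genes were (0%). At an unadjusted p under 0.05, 23 members were lower in HenGC (16.9%) and 0 higher, against 5.57% and 7.12% of all genes. In 34 members (25%) every HenGC array lay below every SoyGC array, against 11% of all genes, and in 0 members every HenGC array lay above, against 10.5%.

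RPL31B, at the tunnel exit where chaperones of nascent chains bind, had the smallest adjusted p. It stood at 1.54, 1.37 and 1.59 in HenGC and at 1.88, 1.65 and 1.96 in SoyGC. The groups did not overlap. The difference was -0.33 ± 0.11 (adjusted p = 0.299), and vehicle, at 1.66, 1.63 and 1.67, lay above HenGC and overlapped the low end of SoyGC.

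RPL7B had the most negative difference, -0.47 ± 0.18. It stood at -3.00, -3.35 and -2.80 in HenGC, against -2.50, -2.92 and -2.33 in SoyGC, and the groups overlapped at HenGC 3 and SoyGC 2. RPL18B came next at -0.41 ± 0.14, with -0.07, -0.41 and -0.18 in HenGC against 0.34, -0.07 and 0.29 in SoyGC, so that the groups met at -0.07. It was followed by RPS27A (-0.39 ± 0.17), a small-subunit protein with a zinc finger, and RPL22B (-0.35 ± 0.14). RPL22B stood at 0.09, -0.20 and 0.24 in HenGC, 0.31, 0.25 and 0.63 in SoyGC, and 0.09, -0.08 and 0.07 in vehicle. Its HenGC and SoyGC values did not overlap.

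RPL24A, which reaches across to the small subunit, stood at 3.18, 2.92 and 3.05 in HenGC, at 3.42, 3.23 and 3.39 in SoyGC and at 2.99, 3.10 and 3.06 in vehicle. SoyGC lay above both other groups without overlap, by 0.30 ± 0.10 over vehicle (adjusted p = 0.0914), and HenGC minus SoyGC was -0.30 ± 0.10 (adjusted p = 0.313). The highest members in HenGC minus SoyGC were RPL41B (0.18 ± 0.31), RPL41A (0.11 ± 0.22), RPL39 (0.11 ± 0.42), RPL4A (0.04 ± 0.13) and RPL4B (0.03 ± 0.14), and none was called. The median difference was -0.11 within scan day 1 and -0.22 within day 2, beside 0.02 and -0.01 for all genes. On both days 111 members were negative, a count that was not made for all genes, and day 2 had 1 array per group. On day 1 HenGC lay on slide 2 and SoyGC on slide 1, so slide and group cannot be told apart there.

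No single ribosomal protein gene passed the test between the preparations, which does not show that they act alike. For RPL7B the 95% confidence interval of HenGC minus SoyGC was -0.88 to -0.06, for RPL18B -0.71 to -0.10 and for RPL3 -0.37 to 0.25. In 109 of 136 members it lay within 0.5 of 0 on both sides.

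A and B paralogues were next set beside each other in the 56 pairs with both copies measured. Since one probe's level says nothing of another's, only the change of the A minus B value between groups was read. Sequence shared by near-identical copies may let one copy's RNA bind the other's probe. Probe sequences were not used here, so the split between copies is uncertain. Copies of a pair lay close to each other: the median size of the A minus B change was 0.04 in HenGC minus vehicle, 0.04 in SoyGC minus vehicle and 0.05 in HenGC minus SoyGC, against 0.10, 0.12 and 0.09 between unrelated members in the fit to all 9 arrays. With an array left out the first reached 0.08 (without HenGC 3), the second 0.07 (without vehicle 2 or SoyGC 1) and the third 0.08 (without HenGC 3). Neither copy led, with 31 pairs where A lay above B and 25 the other way in HenGC, and 28 and 28 in SoyGC. A copies had medians of -0.01 in HenGC and 0.14 in SoyGC, and B copies of -0.02 and 0.16.

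**Figure D5:**
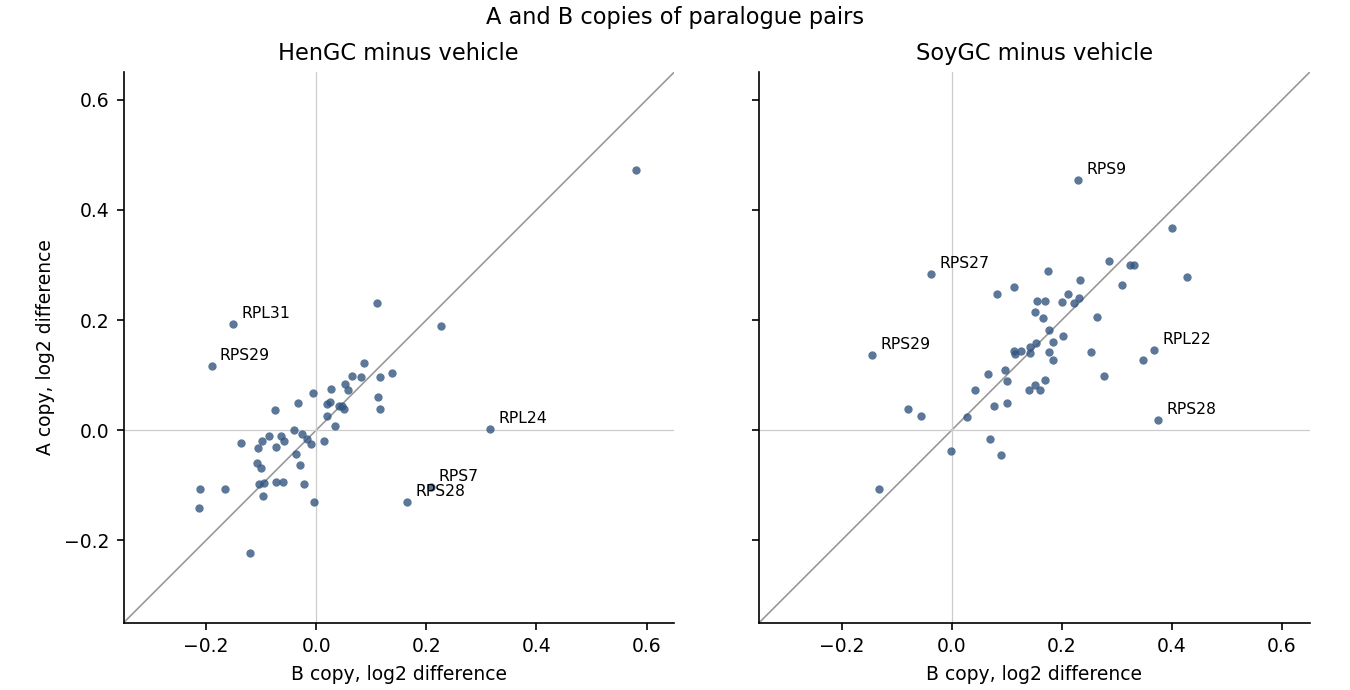
Fitted log2 difference from vehicle of the A copy (y axis) against the B copy (x axis) of ribosomal protein pairs, for HenGC on the left and SoyGC on the right; points are pairs, the diagonal marks equal change, and some pairs far from it are named. Most pairs lie along the diagonal, and RPS28 in SoyGC lies 0.36 below it.

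Changes over 0.2 were seen in 7 pairs in SoyGC, some of which are given here with no ranking among all pairs. Among them were RPS28 (-0.36 ± 0.14), where RPS28B was positive and RPS28A lay at 0.02 ± 0.10, RPS27 (0.32 ± 0.11), RPS29 (0.28 ± 0.30) and RPS9 (0.22 ± 0.16). RPS27A differed from vehicle by 0.28 ± 0.17 and RPS27B by -0.04 ± 0.11. The A minus B value of RPS28 was 1.76, 1.77 and 2.08 in SoyGC and 2.18, 2.11 and 2.40 in vehicle, without overlap. That of RPS27 was -3.80, -3.76 and -3.50 in SoyGC and -3.89, -4.06 and -4.07 in vehicle, also without overlap, whereas those of RPS29 and RPS9 overlapped. The A minus B value of RPS29 was -0.09, 0.45 and 0.51 in SoyGC and 0.27, 0.22 and -0.46 in vehicle, lowest in vehicle 3. Without vehicle 3, RPS29A differed by -0.07 and RPS29B by -0.12 in SoyGC. For RPS28 and for RPS27 the two-sided exact permutation p was 0.1, the smallest that 3 arrays against 3 allow. These pairs were named for the size of their change, so this p cannot serve as separate support for it. In SoyGC against vehicle 8 of the 56 pairs had A minus B values without overlap, in HenGC against vehicle 5 and in HenGC against SoyGC 4. Of all tested single genes, SoyGC and vehicle did not overlap in 13.7% that were higher and 20.5% that were lower. No such share was worked out for pairs of unrelated genes. RPS9B, beside RPS9A, differed by 0.23 ± 0.14.

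In HenGC 5 pairs changed by over 0.2: RPL31 (0.34 ± 0.24), RPL24 (-0.31 ± 0.28), RPS7 (-0.31 ± 0.17), RPS29 (0.31 ± 0.24) and RPS28 (-0.30 ± 0.19). The first 4 each have a copy, RPL31A, RPL24B, RPS7B or RPS29A, among the genes low in vehicle 3. The A minus B value of RPL31 shows it, at 2.65, 2.62 and 2.35 in HenGC against 2.37, 2.46 and 1.76 in vehicle.

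Between HenGC and SoyGC 5 pairs changed by over 0.2, among them RPL24 (-0.28 ± 0.22), RPS27 (-0.26 ± 0.16), RPS14 (0.24 ± 0.10) and RPL31 (0.23 ± 0.16). RPS14B stood at 1.08, 0.93 and 1.04 in HenGC against 1.54, 1.14 and 1.28 in SoyGC, without overlap, a difference of -0.30 ± 0.12 (adjusted p = 0.366), while RPS14A differed by -0.06 ± 0.09. RPL22A, whose protein is known to inhibit splicing of RPL22B transcripts, differed by -0.17 ± 0.10. Members with a paralogue had a median of -0.16 in HenGC minus SoyGC and 0.15 in SoyGC minus vehicle, and the 18 single-copy members -0.07 and 0.08. The 23 members with an unadjusted p under 0.05 in HenGC minus SoyGC were all pair copies (0 of 18 single-copy genes), a split that was not tested. Probes of single-copy members were brighter, with mean levels by array of 4.92 to 5.26 against 3.50 to 3.81 for pair copies. The differences varied with brightness, as given above, and its part in the contrast between these classes was not tested.

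Genes that act on ribosomal proteins were taken from lists of known factors. Dedicated chaperones, which bind newly made ribosomal proteins and escort them to the nucleus or the assembling subunit, were positive in 11 of 11 cases in SoyGC, with a median of 0.84, and 6 of them rose by limma's test, where 3.34% of all genes did. These were SYO1 (0.98 ± 0.23, adjusted p = 0.0391), ACL4 (0.87 ± 0.21, adjusted p = 0.0421), BCP1 (0.84 ± 0.15, adjusted p = 0.0272), RRB1 (0.57 ± 0.13, adjusted p = 0.0362), FAP7 (0.46 ± 0.11, adjusted p = 0.0421) and SQT1 (0.35 ± 0.08, adjusted p = 0.0381). In HenGC 11 of 11 were positive with a median of 0.50 and 0 called, where 0.912% of all genes rose. At an unadjusted p under 0.05, 5 of them were higher in HenGC, as were 8.51% of all genes. Without vehicle 3, 2 rose in SoyGC, BCP1 and ACL4, as did 82 of all 5814 genes, and the medians were 0.48 in SoyGC and 0.23 in HenGC.

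BCP1 stood at -0.26, -0.48 and -0.39 in SoyGC, at -0.47, -0.77 and -0.93 in HenGC and at -1.05, -1.12 and -1.48 in vehicle. All SoyGC arrays lay above all vehicle arrays, as did the HenGC arrays. Its client genes RPL23A and RPL23B differed by 0.07 ± 0.16 and 0.14 ± 0.12 in SoyGC. RRB1 stood at 1.55, 1.48 and 1.82 in SoyGC, at 1.32, 1.08 and 1.44 in HenGC and at 1.13, 0.97 and 1.04 in vehicle, and its client is RPL3, given above. ACL4 escorts Rpl4, whose genes RPL4A and RPL4B were among the lowest members in SoyGC. FAP7 acts on Rps14, whose genes differed by -0.05 ± 0.09 (RPS14A) and 0.09 ± 0.12 (RPS14B), and SQT1 on Rpl10. Whether chaperones and clients differ was not tested.

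The other chaperones were not called in SoyGC: LTV1 (0.96 ± 0.38) and YAR1 (0.87 ± 0.47), both partners of Rps3, PUF6 (0.87 ± 0.27), TSR2 (0.82 ± 0.27), the escort of Rps26, and TSR4 (0.42 ± 0.14), that of Rps2. LTV1 and YAR1 were low in vehicle 3, at -2.75 against -1.15 and -1.45 in vehicle 1 and 2 for LTV1, and at -2.50 against -0.55 and -0.66 for YAR1. The median of all 11 chaperones relative to the vehicle mean was -0.50 in vehicle 3, against 0.33 and 0.10 in vehicle 1 and 2. Without vehicle 3 the SoyGC differences were 0.48 for LTV1, 0.24 for YAR1, 0.57 for PUF6, 0.48 for TSR2 and 0.43 for TSR4. Those of SYO1 and ACL4 were 0.73 and 0.60.

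Of 11 regulators of ribosomal protein genes 1 was called in SoyGC, where 9.27% of all genes were called, 3.34% higher. In HenGC 0 were called, against 1.19% of all genes. At an unadjusted limma p under 0.05, 1 regulator was higher in HenGC, as were 8.51% of all genes. TOD6, a repressor of ribosome biogenesis genes that Sch9 controls, stood at -0.97, -0.86 and -0.64 in SoyGC, at -0.997, -1.14 and -1.03 in HenGC and at -1.40, -2.02 and -2.15 in vehicle. Both treated groups lay above vehicle without overlap. It rose by 1.03 ± 0.18 in SoyGC (adjusted p = 0.0256, and 0.0417 without vehicle 3), and its HenGC difference was 0.80 ± 0.18 (adjusted p = 0.0724). CRF1, the corepressor, stood at -4.96, -4.42 and -5.46 in SoyGC, at -4.71, -3.54 and -4.32 in HenGC and at -4.02, -3.88 and -3.94 in vehicle, a difference of -0.998 ± 0.316 in SoyGC (adjusted p = 0.0793). The activators FHL1, IFH1 and SFP1 differed by 0.39 ± 0.21, 0.11 ± 0.15 and -0.12 ± 0.12 in SoyGC. FHL1 stood at -4.65 in vehicle 3, against -3.68 and -3.89 in vehicle 1 and 2, and without vehicle 3 its SoyGC difference was 0.10. That of ABF1 was 0.20 without vehicle 3. RAP1 (-0.25 ± 0.11), ABF1 (0.36 ± 0.19), HMO1 (0.21 ± 0.09), SCH9 (-0.26 ± 0.12), DOT6 (-0.10 ± 0.25) and STB3 (-0.15 ± 0.13) were not called either.

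Beside these stand 30 translation factors and 11 ribosome-associated proteins. Translation factors had medians of -0.03 in HenGC, 0.12 in SoyGC and -0.14 in HenGC minus SoyGC, with 0 called in each, and ribosome-associated proteins of -0.07, 0.02 and -0.11, also with 0 called. At an unadjusted p under 0.05, 9 translation factors were higher in SoyGC than in vehicle and 0 lower, against 10.9% and 16.7% of all genes. By the same measure 8 were lower in HenGC than in SoyGC and 0 higher, against 5.57% and 7.12% of all genes. In HenGC against vehicle 1 translation factor and 1 ribosome-associated gene were lower, against 12.8% of all genes, and ribosome-associated genes gave 0 in the other comparisons. Mitochondrial ribosomal proteins, 69 tested, had medians of 0.27 in HenGC and 0.28 in SoyGC and 0.01 in HenGC minus SoyGC. Without vehicle 3 their medians were 0.18 in HenGC and 0.19 in SoyGC. Of the 69 genes 2 rose in SoyGC by limma's test, where 3.34% of all genes did. These were MRPL27 (0.56 ± 0.15, adjusted p = 0.0486) and MRPL38 (0.41 ± 0.08, adjusted p = 0.0306). Neither was called without vehicle 3 (adjusted p = 0.0884 and 0.0522).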

How the data were processed

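Per the file headers, each spot of the deposited files carries a processed intensity, linear, background-subtracted and detrended by Agilent Feature Extraction (11.0.1.1, per the submitters' processing notes), not scaled between arrays. The authors' deposited table held, for 100% of values to a relative tolerance of 1e-06, a probe's mean intensity over its 7 spots, linear, unscaled and uncentred (column medians 1772, 1799 and 2634 for HenGC 1 to 3, 1772, 2177 and 2504 for SoyGC, 2322, 2105 and 2009 for vehicle). It served as an alternative.

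From log2 processed signals the 75th percentile of the array's non-control spots was subtracted, outlier spots were left out and spots of a probe averaged. A probe was well above background where over 50% of its spots were. To be tested, a probe had to be so on all 3 arrays of some group, and the brightest such probe stood for its gene (5814 genes). Of 6256 probes, 5765 matched a gene table of a later genome assembly, used for names only. Limma 3.58.1 in R 4.3.3 fitted group means to all 9 arrays with eBayes, with Benjamini-Hochberg adjustment over all tested genes and calls at an adjusted p under 0.05. The script was tested on simulated data.

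The members and lists were chosen with earlier results of these data known. Named were members called in any comparison, the 5 most positive and 5 most negative of each, the 5 paralogue pairs that changed most, a fixed set of examples of roles, all chaperones and regulators, and other listed genes that were called. The number of arrays limits precision. A paralogue pair that this rule names is not reported here, so the pairs given are not a complete list of the largest changes.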

Additional observations from a re-analysis of the deposited data

How the results depend on the processing

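Alternatives were other background, scaling, filter, slide, scan day and replicate settings and leaving out each array. In SoyGC against vehicle the count of 1 ribosomal protein gene became 2 with normexp (on median spot signals), quantile normalization, slide as a random block or the replicate block, 3 with scan day as a block and 4 with array weights. It became 0 with median centring, no dim-probe filter, the authors' table, slide as a fixed block, scan day 1 alone or only the 2 groups fitted, and 0 to 0 with an array left out. Calls by more settings were RPL35A, RPS9A or RPL22B. In HenGC against vehicle it was 0 except 1 (RPP1B) with array weights. HenGC against SoyGC stayed at 0 under all alternatives run. The SoyGC median ranged over 0.08 to 0.19, and 0.10 to 0.17 with an array left out. The HenGC minus vehicle median was -0.16 with the authors' table, where the median of all genes was -0.15, -0.11 with slide fixed, 0.05 with quantile normalization, and -0.07 to 0.04 with an array left out. That of HenGC minus SoyGC was -0.23 in both settings (-0.2278 and -0.2328), -0.08 with array weights, and -0.18 to -0.08 with an array left out.

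SoyGC minus vehicle turned negative for RPL41B (-0.0213 on scan day 1 alone, and -0.0064 to 0.638 with an array left out, lowest without vehicle 3) and RPL39 (-0.23 on day 1 alone, and -0.0752 to 0.792, likewise). HenGC minus SoyGC turned negative for RPL4B with the authors' table (-0.0563) and slide fixed (-0.225), for RPL4A with quantile normalization (-0.0161), the authors' table (-0.0507) and slide fixed (-0.19). With an array left out it was -0.0400 to 0.174 for RPL4B, negative without HenGC 1, HenGC 2 or SoyGC 3, -0.0454 to 0.165 for RPL4A, negative without the same arrays, and -0.137 to 0.261 for RPL39, negative without SoyGC 1. The causes were not tested.

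The replicate numbers are not stated to mark shared cultures. Same-numbered arrays deviated from their group means with correlations of 0.29, 0.04 and 0.18 for HenGC and vehicle, -0.65, 0.44 and -0.45 for SoyGC and vehicle, and 0.08, 0.56 and 0.52 for HenGC and SoyGC, so the numbers were not taken as pairs. The replicate block gave 2 calls in SoyGC against vehicle (RPL35B and RPS9A) and 0 in the other comparisons.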
